A study of Mus musculus with 9 samples.

Results

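The 10 genes described here encode transcription factors that set the identity of B cells and their path into germinal centres or plasma cells. They are Pax5, Ebf1, Foxo1, Spi1, Spib, Irf8, Irf4, Bach2, Bcl6 and Prdm1, taken by name and matched to Ensembl IDs in the RNA count files, 1 row each of 48795 rows in all. RNA-seq compared 3 mock libraries with 3 tatcre libraries of splenic follicular B cells, the resting B cells selected on CD23, from C57BL/6 mice that carried the yy1 f/f allele (a loxP-flanked yy1 gene) in every group. The tatcre cells received TAT-CRE, a cell-permeable Cre recombinase, to delete yy1, while the mock cells received a mock treatment. Culture of both with LPS and IL-4 followed, for 48 hours in 20% serum by the text on the samples and for 72 hours in 10% serum by the text on the series. The protocol text of the mock samples also names TAT-CRE, so the groups rest on the sample titles. The sources used here give no age for the mice. The series text describes 3 spleens divided over the treatments, but no label ties a library to a spleen, so the p-values cover only the spread among these libraries, which may be technical. Exposure to the recombinase and loss of Yy1 cannot be told apart, since by the titles every tatcre library and no mock library was exposed.

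EBF1 and PAX5 commit progenitors to the B lineage, and FOXO1 acts with them early and later in antigen receptor signalling. The ETS factors PU.1 (Spi1) and SPIB pair with IRF4 or IRF8 on composite DNA elements, and the dose of IRF4 helps to decide between germinal centre and plasma cell fates. BACH2 and BCL6 hold activated B cells back from plasma cell differentiation by repressing Prdm1, whose product BLIMP1 in turn represses Pax5 and Bcl6. LPS with IL-4 drives B cells into division, class switching and, in part, plasmablast formation.

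The libraries held 22729187 to 28230727 gene counts. Yy1 itself had 2655, 3018 and 2542 counts in mock and 24, 36 and 50 in tatcre libraries. On the first principal component (61.2% of the variance) mock 1, 2 and 3 stood at -9.8, -36.4 and -79. Tatcre 1, 2 and 3 stood at 40.2, 56 and 29. Mock 3, the library furthest to the mock side, had a count for 20420 genes, where the other libraries had one for 21875 to 23197. The B cell markers Ms4a1, Cd79a and Cd79b were present in every library, at 980 ± 133, 208 ± 26.4 and 371 ± 30.4 CPM (counts scaled to the library total, with TMM factors between libraries; mean ± SD, n = 3) in mock. In tatcre cells they stood at 901 ± 146, 167 ± 34.8 and 423 ± 25.6 CPM, and none of the 3 was called. The T cell genes Cd3e, Cd3d and Cd3g stood at or under 0.383 CPM on average in either group, although Thy1 and Lck of the same list were higher, averaging 213 and 17 CPM in mock against 109 and 10.3 CPM in tatcre cells. The 10 T cell genes summed to 207 to 254 CPM in mock and 118 to 125 CPM in tatcre libraries, and the part of other cells in the results below was not tested.

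All 10 factors passed the filter on low counts. In tatcre cells 4 of them fell, namely Bach2, Irf4, Pax5 and Irf8, none rose, and 6 were not called. This is 40% of the members, where 27.1% of all 15546 tested genes were called (edgeR adjusted p under 0.05), 16.3% lower and 10.8% higher. Among the 6572 tested genes at least as abundant as the least abundant member, a limit set after the values were seen, 36.2% were called and 23.9% were lower. The falls were modest, between 1.22- and 1.43-fold. The median log2 fold change over the 10 members was -0.263, beside 0.024 over all tested genes and -0.059 over the 6572 abundant ones. Fitted values were below 0 for 9 of the 10 members and for 7434 of all 15546 tested genes. With scaling by library size alone, those of Ebf1 and Prdm1 were 0.02 each. The groups did not overlap for 4 members, the same genes that were called, and for 44.0% of all tested genes.

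**Figure D1:**
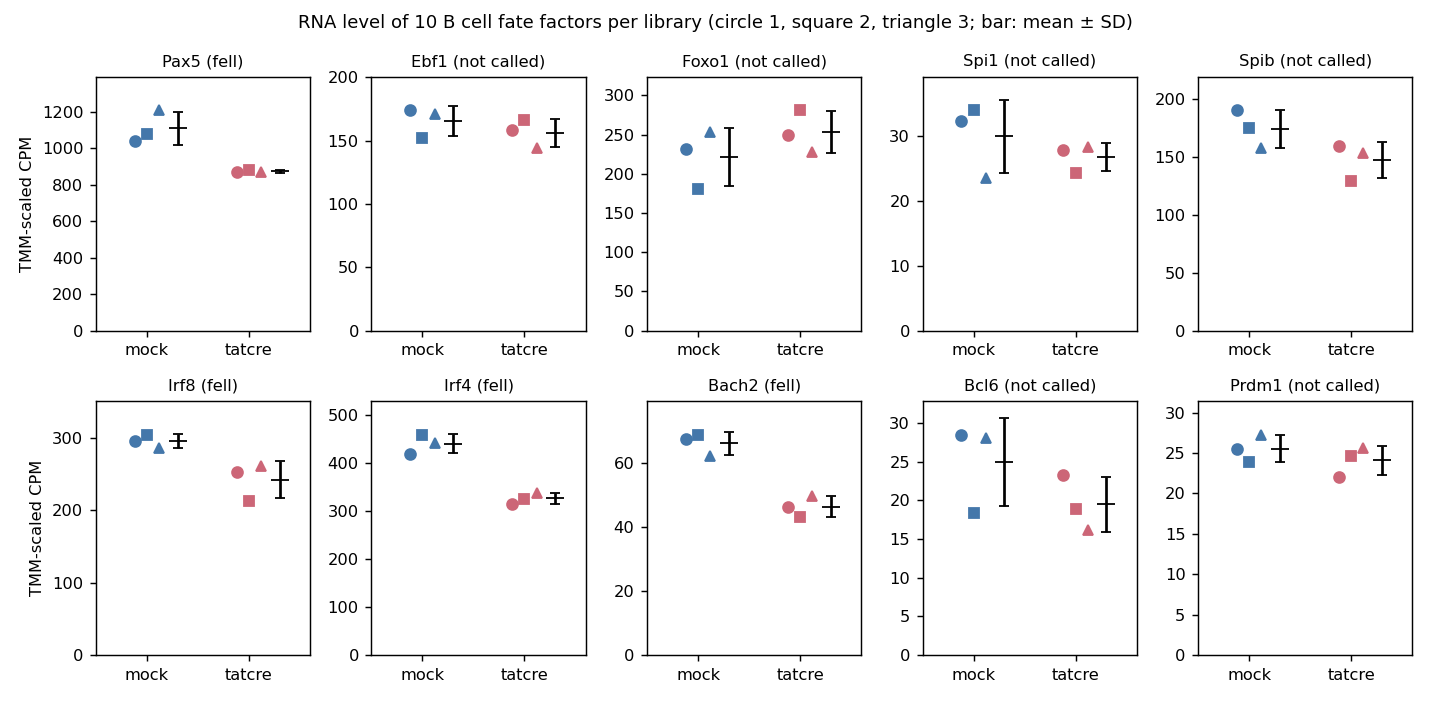
RNA level of each factor in TMM-scaled CPM (vertical axis from 0) in the 3 mock and 3 tatcre libraries, with the mean and SD of each group. Pax5, Irf8, Irf4 and Bach2 show separate groups, while the groups overlap for the other 6 genes.

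Among the commitment factors only Pax5 was called. Pax5, which encodes the factor that maintains B cell identity, stood at 1040, 1080 and 1210 CPM in mock libraries and at 871, 881 and 869 CPM in tatcre libraries. Every tatcre library lay below every mock library, and the tatcre libraries were close to each other. The fall was 1.27-fold (1110 ± 92.8 to 874 ± 6.32 CPM, SD, n = 3 each; log2 fold change -0.34, SE 0.07, edgeR quasi-likelihood adjusted p = 0.0063). Other genes lie within or across Pax5 in the RefSeq annotation, and shared reads could be counted differently than the symbol implies, because the sources used here do not give the strand setting of the counting. Their counts were 0 for Mir5120, at most 15 for Gm12462 and at most 19 for 5730488B01Rik in any library, against at least 21091 for Pax5.

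Ebf1, the factor that acts with Pax5 in the same network, was not called. Its level was 174, 152 and 171 CPM in mock and 158, 166 and 144 CPM in tatcre libraries, with overlapping groups. The 95% interval of its log2 fold change ran from -0.28 to 0.1 (fitted value -0.09, edgeR adjusted p = 0.46). Foxo1 stood at 231, 181 and 253 CPM in mock and at 249, 281 and 228 CPM in tatcre libraries. It was the only member with a fitted value above 0, at 0.19 (interval -0.08 to 0.46, edgeR adjusted p = 0.27), and mock 2 was its lowest library. Without mock 2 the fitted value was 0.06.

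Of the ETS factors and their IRF partners, the IRF genes were called and the ETS genes were not. Irf4 stood at 420, 460 and 443 CPM in mock and at 316, 326 and 339 CPM in tatcre libraries, so that the groups were well apart. It fell 1.35-fold (441 ± 19.8 to 327 ± 11.7 CPM; log2 fold change -0.43, SE 0.07, edgeR adjusted p = 0.0014). Irf8, which in myeloid cells also directs monocyte and dendritic cell development, had 296, 305 and 286 CPM in mock and 253, 213 and 261 CPM in tatcre libraries. Tatcre 2 was the lowest library, and the groups did not overlap. Its fall was 1.22-fold (296 ± 9.53 to 242 ± 25.7 CPM; log2 fold change -0.29, SE 0.09, edgeR adjusted p = 0.033). The call was lost without mock 1, mock 2, tatcre 1 or tatcre 2 (edgeR adjusted p = 0.057, 0.096, 0.058 and 0.079). It was also lost with upper-quartile factors, with library size alone and in a fit blocked on replicate number (edgeR adjusted p = 0.06, 0.12 and 0.066).

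Spib, an ETS factor of lymphoid cells, stood at 190, 175 and 157 CPM in mock and at 159, 129 and 153 CPM in tatcre libraries. The groups overlapped narrowly, through mock 3 and tatcre 1. The fitted log2 fold change was -0.24 (interval -0.46 to -0.02 before adjustment, edgeR adjusted p = 0.1). Spib was called lower without mock 3 (log2 fold change -0.32, edgeR adjusted p = 0.046) and without the low-count filter (edgeR adjusted p = 0.022). Spi1, which encodes PU.1, had 856, 914 and 552 counts in mock and 675, 582 and 703 counts in tatcre libraries. These counts correspond to 32.3, 33.9 and 23.5 CPM and to 27.7, 24.3 and 28.2 CPM, with mock 3 the lowest of all 6 libraries. It was not called (log2 fold change -0.16, interval -0.46 to 0.14, edgeR adjusted p = 0.39), and without mock 3 the fitted value was -0.32 (edgeR adjusted p = 0.063).

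Spi1 and Irf8 are also made by macrophages, so markers of those cells were measured in the same libraries. The 12 macrophage and monocyte markers summed to 0.979 to 3.51 CPM in mock and 3.89 to 6.39 CPM in tatcre libraries; 2 of them were tested and 1, Vcam1, was called higher. Csf1r of the same list was below the low-count filter, with 10, 8 and 1 counts in mock and 31, 31 and 9 counts in tatcre libraries. The 7 dendritic cell markers summed to 144 to 153 CPM in mock and 137 to 141 CPM in tatcre libraries. Of the 3 tested, Cst3 rose, Flt3 fell and Zbtb46 was not called. Among the macrophage markers Cd14, Fcgr1, C1qa, C1qb and C1qc were at 0 counts in all 6 libraries, and Lyz2 was at 0 in the mock libraries. A count of 0 allows up to 0.111 to 0.128 CPM in these libraries. In bulk RNA, fewer cells of a type and less RNA per cell cannot be told apart.

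The repressors of plasma cell fate included the gene with the largest fitted fall of the 10. Bach2 stood at 67.4, 68.8 and 62.1 CPM in mock and at 46.3, 43.1 and 49.6 CPM in tatcre libraries. The highest tatcre library remained well below the lowest mock library. It fell 1.43-fold (66.1 ± 3.55 to 46.4 ± 3.25 CPM; log2 fold change -0.51, SE 0.09, edgeR adjusted p = 0.0015). The antisense gene Bach2os, annotated across Bach2, had at most 1 count in any library. Bcl6, the germinal centre repressor, stood at 28.5, 18.4 and 28 CPM in mock and at 23.3, 18.9 and 16.2 CPM in tatcre libraries. Mock 2 lay among the tatcre libraries. Bcl6 was not called (log2 fold change -0.36, SE 0.18, interval -0.75 to 0.03, edgeR adjusted p = 0.16). It was called lower without mock 2 (log2 fold change -0.55, edgeR adjusted p = 0.036) and without the low-count filter (log2 fold change -0.39, edgeR adjusted p = 0.013). Gm31527 overlaps Bcl6 in the annotation and was not matched to a row.

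Prdm1, the driver of plasma cell differentiation that Bach2 and Bcl6 repress, was not called. It had 675, 644 and 640 counts in mock and 539, 589 and 638 counts in tatcre libraries, or 25.5, 23.9 and 27.3 CPM against 22.1, 24.6 and 25.6 CPM. The groups overlapped. The interval of its log2 fold change ran from -0.31 to 0.14 (fitted value -0.08, edgeR adjusted p = 0.57).

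**Figure D2:**
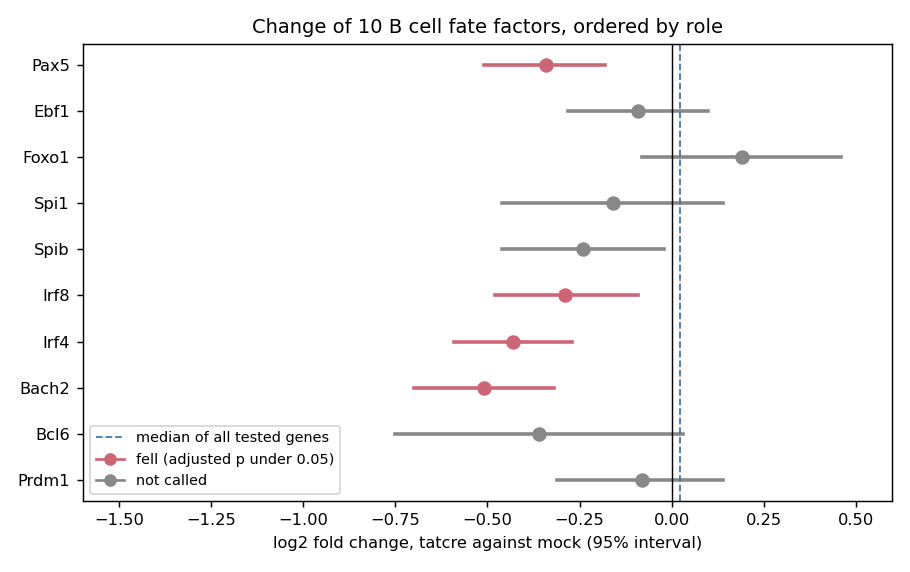
Fitted log2 fold change of each factor (horizontal axis), tatcre against mock, with its 95% interval before adjustment (3 libraries a group). The dashed line is the median of all tested genes, 0.024. The intervals of the 4 called genes and of Spib lie below 0.

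The matched promoter windows of the 4 factors that fell are shown because these genes moved in the same direction. RefSeq windows (GRCm38.p6, 250 bases before to 50 after an annotated start) were matched for 9 of the 10 members, 12 windows in all. They were searched on both strands for ATGGC or its reverse complement, the core of the YY1 recognition sequence, shown in capitals, and for the longer AANATGGC or its reverse complement, which contains that core. The core was added to the search after the longer motif had been counted. For Bach2 and Prdm1 only a window at an internal start was matched, so their RefSeq gene starts were not searched. The windows are Pax5 (chr4:44710645-44710944, minus strand), Irf4 (chr13:30748983-30749282, plus strand), Irf8 at the gene start (chr8:120736108-120736407, plus strand) and at an internal start (chr8:120738389-120738688, plus strand), and Bach2 at an internal start (chr4:32417185-32417484, plus strand). Each is written 5′ to 3′ on the strand of its gene.
Pax5: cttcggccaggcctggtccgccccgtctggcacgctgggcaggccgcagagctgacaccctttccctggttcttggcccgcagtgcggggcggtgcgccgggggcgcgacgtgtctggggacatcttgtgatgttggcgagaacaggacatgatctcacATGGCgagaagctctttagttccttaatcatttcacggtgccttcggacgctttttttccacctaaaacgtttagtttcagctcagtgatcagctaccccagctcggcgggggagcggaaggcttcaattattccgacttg
Irf4: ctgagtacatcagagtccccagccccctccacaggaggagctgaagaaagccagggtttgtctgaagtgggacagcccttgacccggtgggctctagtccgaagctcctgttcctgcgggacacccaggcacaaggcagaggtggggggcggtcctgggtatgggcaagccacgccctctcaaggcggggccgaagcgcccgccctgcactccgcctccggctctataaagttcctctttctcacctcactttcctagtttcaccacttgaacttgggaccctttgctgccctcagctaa
Irf8 gene start: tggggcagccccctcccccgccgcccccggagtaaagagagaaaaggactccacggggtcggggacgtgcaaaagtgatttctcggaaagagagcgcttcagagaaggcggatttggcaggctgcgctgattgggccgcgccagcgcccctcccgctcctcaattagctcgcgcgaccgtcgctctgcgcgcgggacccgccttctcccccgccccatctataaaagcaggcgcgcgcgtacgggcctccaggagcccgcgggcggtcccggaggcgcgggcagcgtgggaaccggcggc
Irf8 internal start: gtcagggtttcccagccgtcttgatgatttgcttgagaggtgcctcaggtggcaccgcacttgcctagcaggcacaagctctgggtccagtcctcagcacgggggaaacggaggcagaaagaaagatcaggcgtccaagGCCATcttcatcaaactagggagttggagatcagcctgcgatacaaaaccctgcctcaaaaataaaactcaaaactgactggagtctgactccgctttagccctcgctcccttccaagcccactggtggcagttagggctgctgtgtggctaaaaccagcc
Bach2: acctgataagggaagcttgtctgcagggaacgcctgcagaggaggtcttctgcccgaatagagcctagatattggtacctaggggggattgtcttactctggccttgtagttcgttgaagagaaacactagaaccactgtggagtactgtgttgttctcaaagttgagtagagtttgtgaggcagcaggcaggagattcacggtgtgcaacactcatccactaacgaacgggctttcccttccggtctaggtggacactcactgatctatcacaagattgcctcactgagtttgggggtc
The core was present in 3 of the 12 member windows, those of Pax5, Spib and the internal start of Irf8, and in 40.5% of 32851 windows of the same length. Spib, which was not called, held 3 copies. The longer motif was present in 1 of the 12 member windows, the internal start of Irf8, and in 6.05% of all windows. These matches describe letters in a window and are not measured sites. The deposited YY1 peaks were not set against these genes, because their genome build is not settled.

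Because opposing factors act through their balance, the ratio of the counts of 2 members was taken within each library, a quantity that library scaling does not change. Of 6 ratios, those of Bach2 and of Pax5 to Prdm1 did not overlap between groups. Bach2 to Prdm1 was 2.64, 2.88 and 2.28 in mock and 2.09, 1.75 and 1.94 in tatcre libraries, lower in every tatcre library. The difference of the mean log2 ratios was -0.43 (2.6 ± 0.305 to 1.93 ± 0.171, exact two-sided permutation p = 0.1, adjusted over 6 ratios 0.3). Pax5 to Prdm1 was 40.6, 45.1 and 44.5 in mock and 39.4, 35.8 and 34 in tatcre libraries (difference -0.26 on the log2 scale, exact permutation p = 0.1, adjusted 0.3). With 3 libraries against 3 the smallest p this test can give is 0.1, so neither could pass the threshold.

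The other 4 ratios overlapped between the groups. Irf4 to Irf8 was 1.42, 1.51 and 1.55 in mock and 1.25, 1.53 and 1.3 in tatcre libraries (exact permutation p = 0.3, adjusted 0.6). Spi1 to Spib was 0.171 ± 0.0219 in mock and 0.182 ± 0.00735 in tatcre cells (exact permutation p = 0.6, n = 3 each, adjusted 0.72). Bcl6 to Prdm1 was 1.12, 0.77 and 1.03 in mock and 1.05, 0.769 and 0.632 in tatcre libraries (exact permutation p = 0.4, adjusted 0.6). Bcl6 to Irf4 was 0.0571 ± 0.015 in mock and 0.0598 ± 0.0131 in tatcre cells (exact permutation p = 0.8, n = 3 each, adjusted 0.8). The sign of its difference turned without mock 2 or tatcre 1 (-0.16 and -0.08 on the log2 scale). A ratio of counts between genes carries their unequal lengths, so only its change between libraries is read.

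**Figure D3:**
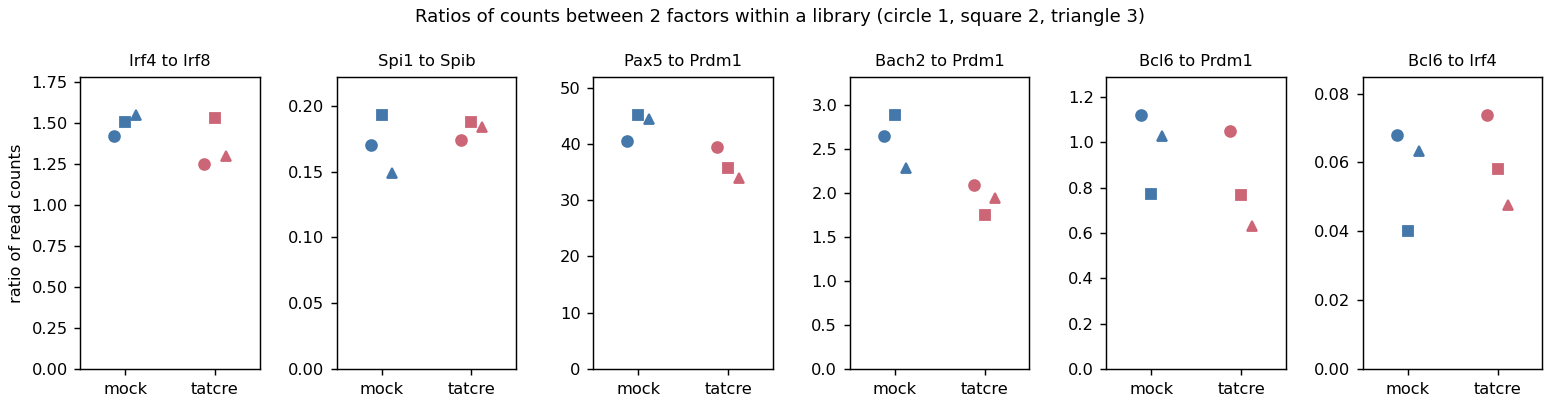
Ratio of read counts between 2 factors within each library (vertical axes from 0), 3 mock and 3 tatcre libraries. Bach2 to Prdm1 and Pax5 to Prdm1 are lower in all tatcre libraries than in all mock libraries, while the other 4 ratios overlap.

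Among 30 other tested transcription factors of B cell identity 11 fell, 2 rose and 17 were not called, with a median log2 fold change of -0.13. The counts of this list and of those below stand beside 27.1% of all tested genes called, 16.3% lower and 10.8% higher. Among the 6572 abundant genes 36.2% were called, 23.9% lower and 12.3% higher. No list was tested as a set. Tcf4, which encodes an E protein of the B lineage, fell 1.48-fold (233 ± 24.4 to 158 ± 4.15 CPM, edgeR adjusted p = 8.4e-04). Lef1, a WNT pathway factor, rose 1.51-fold (19.5 ± 2.2 to 29.4 ± 0.946 CPM, edgeR adjusted p = 0.002). Tcf12, which encodes another E protein, rose 1.25-fold (96.9 ± 4.66 to 121 ± 7.2 CPM, edgeR adjusted p = 0.014). Bhlhe40 fell 1.33-fold (56.5 ± 1.41 to 42.6 ± 1.02 CPM, edgeR adjusted p = 0.0031). The other falls were those of Ikzf1, Ikzf3, Pou2af1, Ets1, Runx1, Runx3, Zeb2, Zbtb32 and Hhex. Xbp1, a plasma cell factor, averaged 237 CPM in mock against 225 CPM in tatcre cells, with no call.

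Of 15 tested family relatives of the members 3 rose, 1 (Prdm10) fell and 11 were not called, with a median of 0.02. Foxo3 and Foxo4, paralogs of Foxo1, rose 1.35-fold (26.4 ± 0.676 to 35.7 ± 1.07 CPM, edgeR adjusted p = 0.0035) and 1.65-fold (7.57 ± 1.55 to 12.5 ± 1.48 CPM, edgeR adjusted p = 0.0081). Bach1, the paralog of Bach2, rose 1.53-fold (8.82 ± 0.834 to 13.5 ± 2.95 CPM, edgeR adjusted p = 0.018), a call lost without mock 2 or tatcre 2 (edgeR adjusted p = 0.085 and 0.051). Without either of these libraries 2 genes of the list were called. Whether Bach1 and Bach2, or Foxo1 and its paralogs, differ in their change was not tested. Irf1, Irf2, Irf3, Irf5, Irf7 and Irf9 were not called.

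Among 21 partners and corepressors 7 fell, 3 rose and 11 were not called (median -0.12). Batf and Batf3, the AP-1 factors that bind with IRF4 and IRF8, fell 1.42-fold (301 ± 15.5 to 212 ± 14.4 CPM, edgeR adjusted p = 0.001) and 2.64-fold (7 ± 0.902 to 2.65 ± 1.12 CPM, edgeR adjusted p = 0.0028). Brd2, a bromodomain protein, fell 1.67-fold (421 ± 16.2 to 251 ± 23.7 CPM, edgeR adjusted p = 1.2e-04). Without mock 2 only 5 genes of this list were called.

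Genes known to be activated by Pax5 or Ebf1 included 10 falls and 2 rises among 19 tested, with 7 not called and a median of -0.36. Cd72, a B cell coreceptor, fell 2.27-fold (75.4 ± 6.41 to 33.2 ± 2.49 CPM, edgeR adjusted p = 1.3e-05). Blk, a SRC family kinase, fell 3.12-fold (16.4 ± 2.31 to 5.24 ± 0.432 CPM, edgeR adjusted p = 2.2e-05), and Fcer2a, which encodes CD23, fell 1.53-fold (1150 ± 18.1 to 753 ± 28.2 CPM, edgeR adjusted p = 8.1e-05). Ralgps2 and Siglecg rose, and Cd79a, Cd79b, Ms4a1 and Bank1 were not called. Of 7 tested genes that Pax5 represses 2 fell, none rose and 5 were not called (median -0.23). These were Jchain (123 ± 24.6 to 87.8 ± 10.7 CPM) and Flt3 (120 ± 8.58 to 101 ± 2.61 CPM), with edgeR adjusted p-values of 0.029 and 0.049. The call of Flt3 was lost without mock 2, mock 3, tatcre 1, tatcre 2 or tatcre 3, and that of Jchain without mock 1, mock 3 or tatcre 2. Flt3 also lost its call with RLE factors, upper-quartile factors, library size alone and the replicate block (edgeR adjusted p = 0.066, 0.13, 0.2 and 0.11). Jchain lost its call with upper-quartile factors and with library size alone (edgeR adjusted p = 0.056 and 0.076). Without mock 3 no gene of this list was called, and 1 was called without mock 2, tatcre 1 or tatcre 2.

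Of 15 tested Foxo1 targets 2 fell, 1 rose and 12 were not called (median -0.07). The pro-apoptotic gene Bcl2l11 rose 1.61-fold (163 ± 18.2 to 261 ± 22.8 CPM, edgeR adjusted p = 6.1e-04). Ccr7, a homing receptor, fell 1.97-fold (21.7 ± 5.53 to 11 ± 2.28 CPM, edgeR adjusted p = 0.0039), and Sesn1 fell 1.29-fold (edgeR adjusted p = 0.032). The Sesn1 call was lost without mock 1, mock 3, tatcre 2 or tatcre 3 (edgeR adjusted p = 0.061 to 0.093). It was also lost with upper-quartile factors, library size alone and the replicate block (edgeR adjusted p = 0.074, 0.11 and 0.057). Klf2 was not called, averaging 47.8 CPM in mock against 51.6 CPM in tatcre cells. Rag1 and Rag2 had 0 counts in every library.

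Of 13 tested germinal centre genes 5 fell, 1 rose and 7 were not called (median -0.08). Ccr6, a chemokine receptor gene, fell 1.87-fold (20.8 ± 1.59 to 11.1 ± 2.89 CPM, edgeR adjusted p = 0.0026) and Mybl1 rose 1.69-fold (15.9 ± 2.71 to 26.9 ± 4.8 CPM, edgeR adjusted p = 0.0046). Of 20 tested plasma cell genes 7 fell, none rose and 13 were not called (median -0.14). Slamf7, a surface receptor, fell 1.54-fold (259 ± 16.2 to 168 ± 13.5 CPM, edgeR adjusted p = 4.0e-04), the endoplasmic reticulum gene Edem1 fell 1.47-fold (edgeR adjusted p = 3.4e-04) and the chaperone cofactor Mzb1 fell 1.45-fold (edgeR adjusted p = 0.0027). Sdc1, the surface marker of plasma cells, was not called, with 2.84 ± 0.346 CPM in mock against 3.02 ± 0.943 CPM in tatcre cells. Summed over 6 plasma cell markers the level was 594 to 681 CPM in mock and 450 to 533 CPM in tatcre libraries, without overlap. Singly, 44.0% of all tested genes did not overlap between the groups. Of the 5 plasma cell markers tested, Slamf7 and Jchain fell, none rose and 3 (Xbp1, Sdc1 and Derl3) were not called. The 7 marginal zone B cell markers, among them Mzb1 of the plasma cell list and Cr2 of the list activated by Pax5 or Ebf1, summed to 221 to 254 CPM in mock and 164 to 187 CPM in tatcre libraries. Of these Cr2, Mzb1 and Dtx1 fell, none rose and 4 were not called. The part of a change in cell makeup in these lists was not tested.

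Of 14 genes that Bach2 or Bcl6 is known to repress, 4 rose, 2 fell and 8, Prdm1 among them, were not called. The median of this list was 0.18, the highest of the 9 lists. Cdkn2a and Cdkn1a, inhibitors of the cell cycle, rose 2.31-fold (22 ± 1.2 to 50.9 ± 4.1 CPM, edgeR adjusted p = 1.2e-05) and 2.35-fold (20.2 ± 1.54 to 47.3 ± 5.42 CPM, edgeR adjusted p = 2.6e-05). Gclm and Il10 rose as well. Hmox1, a heme oxygenase gene that Bach factors repress, fell 3.34-fold from a low level (4.25 ± 0.79 to 1.27 ± 0.47 CPM, edgeR adjusted p = 0.0024), and Bcl2l1 also fell.

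**Figure D4:**
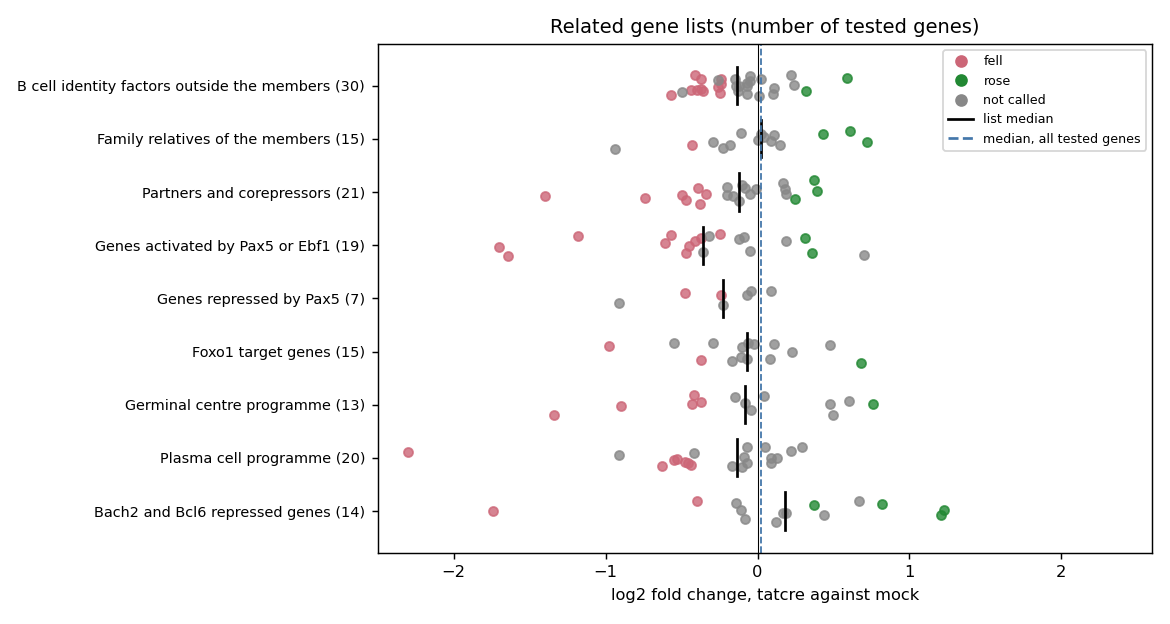
Fitted log2 fold change (horizontal axis), tatcre against mock, of every tested gene of the 9 related lists, with the number tested in brackets. Points are genes, black ticks are list medians and the dashed line is the median of all tested genes, 0.024. The list activated by Pax5 or Ebf1 has the lowest median (-0.36) and the list repressed by Bach2 and Bcl6 the highest (0.18).

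For the 3 members with the largest fitted changes, the genes with the most similar profile over the 6 libraries were sought. Candidates were 5091 genes with an established symbol and a mean log2 CPM of at least 5, ranked by the root mean square distance of centred log2 CPM. A small distance over these libraries fixes a like change in advance, so the changes of the neighbours are no separate result. Closest to Bach2 were Ccdc134 and Helz (distance 0.015 each) and Cnn2 (0.023), with log2 fold changes of -0.5, -0.5 and -0.49. Closest to Irf4 were Prps1 (0.021), Pdpk1 (0.022) and Bhlhe40 (0.025), the last also in the list of identity factors above. Bcl6 had no neighbour as close, the nearest being Ifi209 (0.105), Pnrc1 (0.112) and Mindy2 (0.117).

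**Figure D5:**
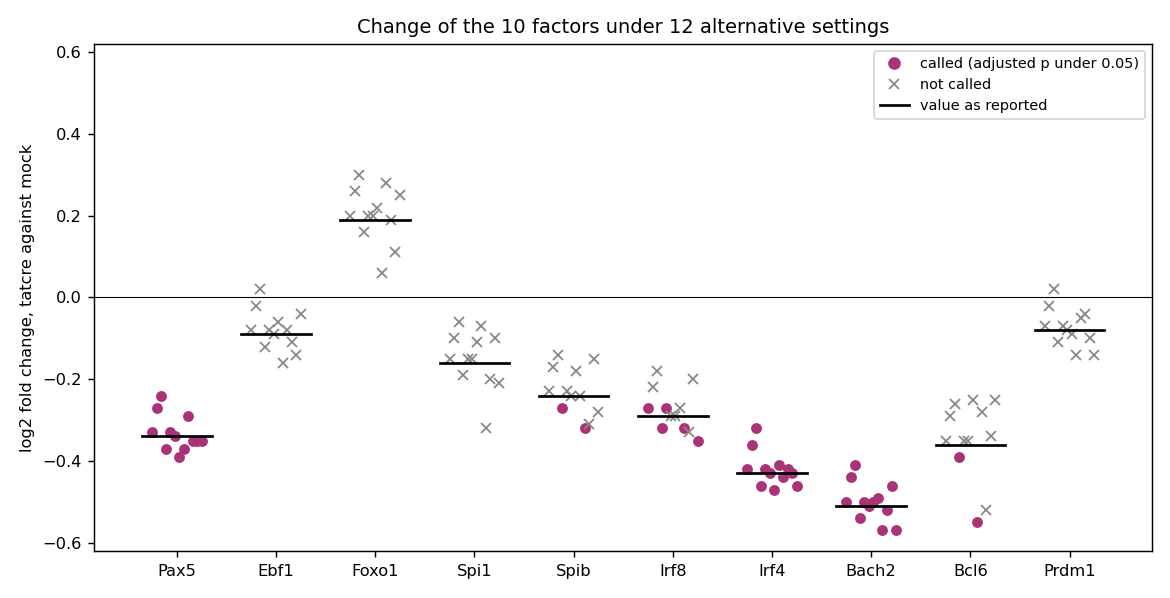
Fitted log2 fold change of each factor (vertical axis) under 12 alternative settings (other scalings, no low-count filter, DESeq2, a replicate block and each library left out), with circles for called values, crosses for values not called and a black line for the value as reported. Bach2, Irf4 and Pax5 were called in all 12, Irf8 in 5, Spib and Bcl6 in 2 each, and the other 4 in none.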

How the data were processed

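RNA was measured in 3 mock and 3 tatcre libraries. Each deposited RNA file gives raw, unnormalized counts by Ensembl gene ID. The submitters' processing notes name HTSeq, TopHat2, SAMtools and Trimmomatic, and build mm10. Versions, annotation, strand setting and the handling of multiply aligned reads were not stated in those sources. The kit was a stranded one, per the labels' protocols. Of 48795 IDs, 48349 matched a symbol.

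The filterByExpr function of edgeR (minimum count 10, minimum total 15) left 15546 genes, which were scaled by TMM. Tatcre was compared with mock over all of them with the quasi-likelihood test of edgeR 4.0.16 under R 4.3.3, and p-values were adjusted by Benjamini-Hochberg (threshold 0.05). The SE is the absolute log2 fold change divided by the square root of F, and intervals are 95%. The test was tried on simulated data with the same dispersion for every gene. Log2 changes of -2, -1, 1 and 2 were called in 88%, 76%, 88% and 96% of 50 genes each. Of all calls 5.9% were false. Changes as small as those of the members were not simulated. A count of 0 was taken to allow 3 counts per library, which covers counting error only. Every pair of libraries differed by more than sampling noise (chi-square per degree of freedom at least 8.1). Alternatives were other scalings, no filter, DESeq2 (1.42.0), a replicate block and leaving out each library.

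Members and lists were chosen with earlier results of these data known. Named list genes are the 3 called genes of smallest adjusted p in each list; others named were chosen after their values were seen, and some list genes are not reported here. RefSeq gene lengths here include introns, so levels were not compared between genes. The YY1 peak files were not used.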

Additional observations from a re-analysis of the deposited data

How the results depend on the processing

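The 4 falls among the members became 3 with upper-quartile factors, library size alone or a replicate block, stayed 4 with RLE factors or DESeq2, and were 6 without the low-count filter; leaving out 1 library gave 3 to 5. Library size alone shifted the all-gene median (log2 fold change) from 0.024 to 0.129 and turned the fitted values of Ebf1 and Prdm1 to 0.02 each, neither called; relative to that median each stood at -0.11, as with TMM. Pax5, Irf4 and Bach2 stood at -0.37, -0.45 and -0.54 relative to the median under either scaling. A change of scaling alone moves all genes by nearly the same amount, so values relative to the median could hardly differ. Over all tested genes 2614 were higher with library size alone, against 1679 as reported; falls made up 60.2% of calls as reported, 48.5% with upper-quartile factors and 42% with library size alone. With 1 library left out the number higher ran from 998 (without mock 2) to 1681, and was 1002 without tatcre 1. The count for genes that Pax5 represses was 2 as reported, 1 with RLE factors, 0 with upper-quartile factors, 0 with library size alone, 4 without the filter and 1 with the replicate block, and 0 to 2 with 1 library left out. The Foxo1 target count rose from 3 to 5 without the filter and to 5 with DESeq2. With 1 library left out the count for family relatives ran from 2 to 4 and that for partners and corepressors from 5 to 9. The log2 difference of Bcl6 to Irf4 was 0.08 as reported and ran from -0.16 to 0.23 with 1 library left out. Same-numbered libraries did not all deviate together (correlations of deviations 0.056, -0.032 and 0.226), so numbers were not taken as pairs; the replicate block ended only the call of Irf8 among the members (edgeR adjusted p = 0.066), and those of Flt3, Sesn1 and Mindy2 among the other named genes. The cause of these differences was not tested. Of 540 values compared for 45 named genes, 494 kept their direction and side of the threshold, 37 lost their call, 7 gained one and 2 changed sign. With 3 libraries a group, Spi1 and Bcl6 had the widest intervals of the members (SE 0.14 and 0.18). Prdm1, with counts in a similar range, had an SE of 0.1.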
